A study of Homo sapiens with 8 samples.

Results

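The mRNAs of 10 enzymes of sugar breakdown (GPI, PFKL, ALDOA, TPI1, GAPDH, PGK1, ENO1, PKM, LDHA and LDHB) were examined for binding of G3BP1, an RNA-binding protein that nucleates stress granules. Their peaks were those that lay whole inside a fixed stretch of hg19 on the strand of each gene, which gave 75 of the 2925 peaks of the list from PDS-treated cells and 56 of the 1421 peaks of the list from untreated cells. All cells were HEK293T, an established human embryonic kidney line, and each group had 2 libraries: G3BP1 immunoprecipitate (IP) and input after 20 µM PDS for 12 h, and IP and input without treatment (Ctrl). The labels do not spell out PDS, which in work on guanine quadruplexes (four-stranded structures of guanine-rich nucleic acid) usually stands for pyridostatin, a ligand that stabilises them. Binding was mapped by seCLIP, in which RNA is crosslinked to protein by light (UVA, per the labels), the protein is precipitated, and the recovered fragments are sequenced beside an input made without the antibody. The deposited lists hold 1 line per peak for both replicates together.

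Glycolysis turns glucose into pyruvate in the cytosol. GPI converts glucose phosphate to fructose phosphate, PFKL is the liver-type subunit of phosphofructokinase, the committing step, and ALDOA splits the resulting sugar bisphosphate into triose phosphates, which TPI1 interconverts. GAPDH then oxidises the triose, PGK1 makes ATP, ENO1 forms phosphoenolpyruvate and PKM makes pyruvate and a further ATP, while LDHA and LDHB are the subunits of lactate dehydrogenase, which interconverts pyruvate and lactate. These mRNAs are abundant in proliferating cell lines.

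G3BP1 peaks were found on 9 of the 10 mRNAs in the PDS list and on 8 in the Ctrl list. TPI1 had 7 peaks in the PDS list and 0 in the Ctrl list, and PFKL had 0 in both. The enzymes took up 2.56% of the PDS list and 3.94% of the Ctrl list by number of peaks, and 1.84% and 3.12% by bound length (the sum of peak widths). The PDS list was 2.06 times as long as the Ctrl list over all peaks, whereas the enzymes had 1.34 times as many peaks in it. With the PDS list cut to its 1421 most enriched peaks, the enzymes kept 42 PDS peaks against 56 Ctrl peaks, which turned their ratio to 0.75. That cut left a log2 fold limit of about 3.6 in the PDS list and of 3 in the Ctrl list, so the limits were unlike. At a log2 fold of at least 4 in both lists the enzymes had 24 PDS and 22 Ctrl peaks, beside 808 and 313 over all peaks. By bound length the enzymes were nearly level, with 3614 nt in the PDS list and 3520 nt in the Ctrl list, a ratio of 1.03 where the whole lists gave 1.74. The mRNAs were chosen with their peaks known and no value exists per replicate, so none of these differences carries a test.

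**Figure D1:**
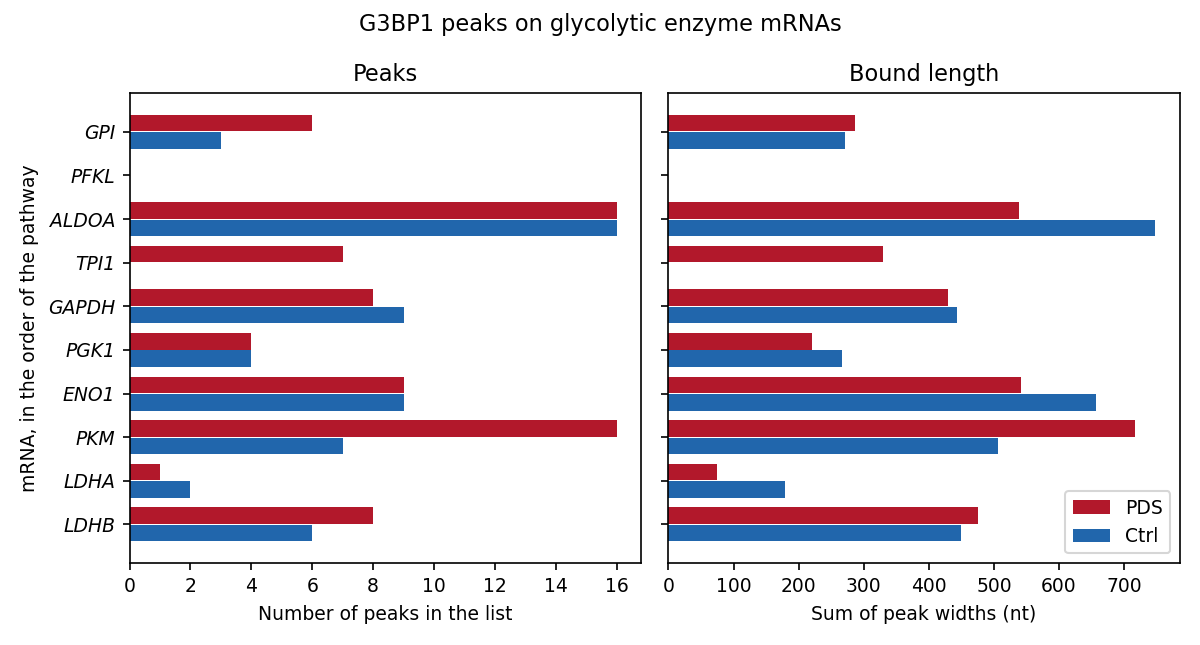
Number of G3BP1 peaks (left) and summed peak width in nt (right) on each enzyme mRNA, with the PDS list in red above the Ctrl list in blue. ALDOA has 16 peaks in each list, PKM has 16 in PDS and 7 in Ctrl, TPI1 has bars in the PDS list alone, and PFKL has none.

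Overlap between the lists was counted next. Of the enzymes' 75 PDS peaks, 43 (57.3%, exact 95% interval 45.4 to 68.7%) overlapped a Ctrl peak by at least 1 nt on the same strand, beside 30.6% of all PDS peaks. Of their 56 Ctrl peaks, 37 (66.1%, 52.2 to 78.2%) overlapped a PDS peak, beside 51.5% of all Ctrl peaks. The bases in common numbered 2039, which is 56.4% of the enzymes' bound length in the PDS list and 57.9% in the Ctrl list, where all peaks gave 24.4% and 42.5%. These shares moved with the limits. Among peaks with a log2 fold of at least 4 and a −log10 p of at least 5, 20.8% of the enzymes' 24 PDS peaks and 27.3% of their 22 Ctrl peaks overlapped, beside 21.5% and 45.4% of all such peaks, so that the enzymes no longer stood above the series. With the PDS list cut to its 1421 most enriched peaks, 66.7% of the enzymes' 42 remaining PDS peaks and 42.9% of their 56 Ctrl peaks overlapped, beside 44.0% and 36.3% of all peaks. The intervals cover counting error only, and neighbouring peaks on 1 mRNA are not independent.

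To look past the splitting of peaks, peaks of both lists within 50 nt of each other on 1 strand were joined into sites. The enzymes had 54 sites, of which 26 (48.1%) held peaks of both lists, 15 (27.8%) of the PDS list alone and 13 (24.1%) of the Ctrl list alone. Over all 2599 sites of the series these shares were 22.4%, 55.4% and 22.2%. Among all listed peaks, the members therefore had a larger share of sites in common and a smaller share of sites found with PDS alone than the series as a whole. The site shares were not recounted at the stricter threshold, where the enzymes' overlapping peaks did not stand above the series.

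Peak heights are given as the authors' own log2 fold of IP over input and −log10 p, 1 value per peak. Every peak in either list had a log2 fold above 3, so a site missing from a list may have been bound below that limit. The enzymes' median log2 fold was 3.72 in the PDS list and 3.73 in the Ctrl list, where all peaks had medians of 3.59 and 3.52. Without ALDOA the enzymes' medians were 3.63 (PDS) and 3.505 (Ctrl), so the Ctrl median was no longer above that of all peaks. A log2 fold of at least 4 was reached by 24 of the 75 PDS peaks (32.0%, beside 27.6% of all PDS peaks) and by 22 of the 56 Ctrl peaks (39.3%, beside 22.0% of all Ctrl peaks). ALDOA alone held 6 of these 24 PDS peaks and 11 of these 22 Ctrl peaks. The median −log10 p was 20.0 in the PDS list and 15.9 in the Ctrl list, against 17.8 and 11.9 over all peaks. The enzyme peaks closest to the limit had log2 folds of 3.01 (PDS, on ENO1) and 3.05 (Ctrl, on GPI).

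At the 26 sites of both lists, the highest log2 fold was higher with PDS at 15 (57.7%, beside 65.5% of the 583 such sites in the series) and higher without it at 11. The median difference, PDS minus Ctrl, was 0.11 on the log2 scale for the enzymes and 0.23 for all such sites. When only peaks that themselves overlapped the other list were taken, 15 of 25 enzyme sites (60.0%, beside 65.4% in the series) were higher with PDS and the median difference was 0.25. The number of peaks behind a highest value differed between the lists at some sites. PKM 72500962 to 72501232 held 7 PDS peaks and 1 Ctrl peak, and ENO1 8923294 to 8923402 held 1 and 3. The effect of this on the differences was not tested. Over all peaks of the sites, the direction differed between the mRNAs: ALDOA was lower with PDS at 4 of 5 sites, LDHB and PKM were higher at 3 of 4 each, and PGK1 at 2 of 2. GPI (1 of 2 higher), GAPDH (2 of 4) and ENO1 (3 of 5) were mixed. Over all peaks of the sites, only on PGK1 did all sites go the same way, and the smallest of PKM's higher sites differed by 0.03. With overlapping peaks only, PKM was higher with PDS at 4 of 4 sites, and PGK1 kept 1 site, also higher.

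**Figure D2:**
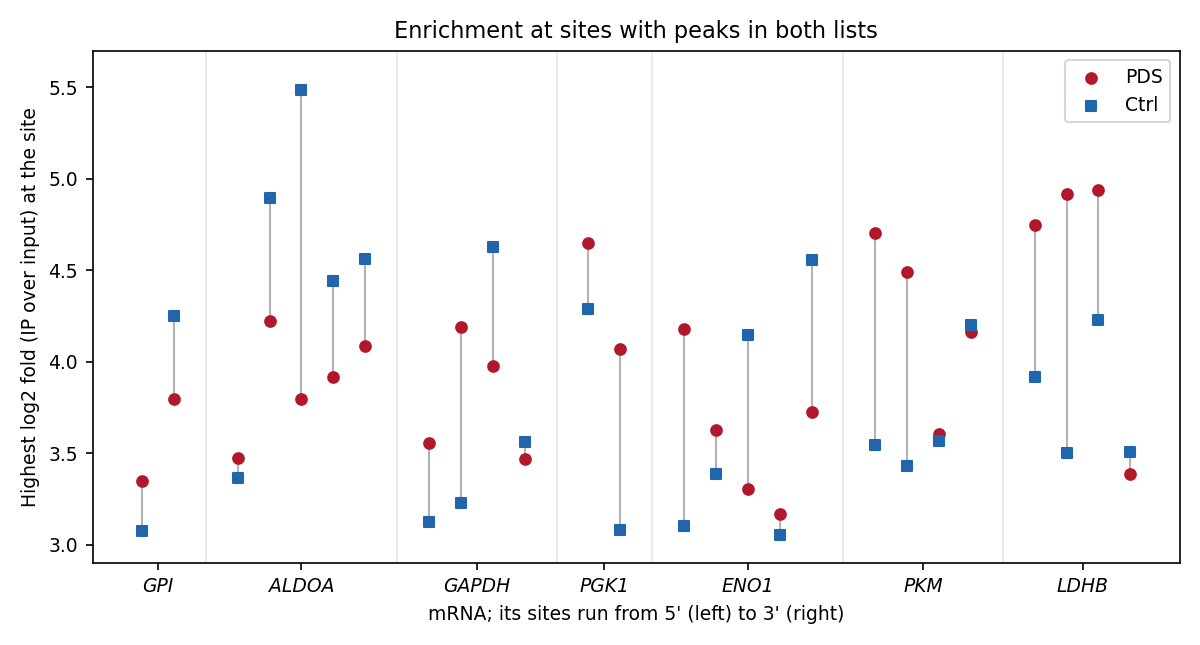
Highest log2 fold of IP over input at each site that held peaks of both lists, for PDS (red circles) and Ctrl (blue squares), grouped by mRNA with sites in 5′ to 3′ order and a grey line joining the values of 1 site. The 26 sites range from -1.69 (ALDOA) to 1.42 (LDHB), PDS minus Ctrl, and 6 of the 7 mRNAs end, at their 3′-most site, with a lower difference than at their 5′-most site.

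Peaks lay mostly toward the 3′ edge of the windows, which run close to the ends of each gene and include its introns. With the midpoint of each peak placed on its window from 0% (5′ edge) to 100% (3′ edge), the median position was 75.7% for the 75 PDS peaks and 87.5% for the 56 Ctrl peaks. The last 25% of the window held 42 PDS peaks (56.0%) and 44 Ctrl peaks (78.6%). Without ALDOA, whose peaks nearly all lie there, the shares were 44.1% of 59 PDS peaks and 72.5% of 40 Ctrl peaks. Within 1 kb of the 5′ edge there were 4 peaks in each list. Those of the PDS list lay on TPI1 and GAPDH, and those of the Ctrl list on GAPDH, ENO1 and LDHB. Exons, introns and untranslated regions were not assigned, because an hg19 annotation was not used here. Peak sequences were not read, because the hg19 genome sequence was not used either.

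**Figure D3:**
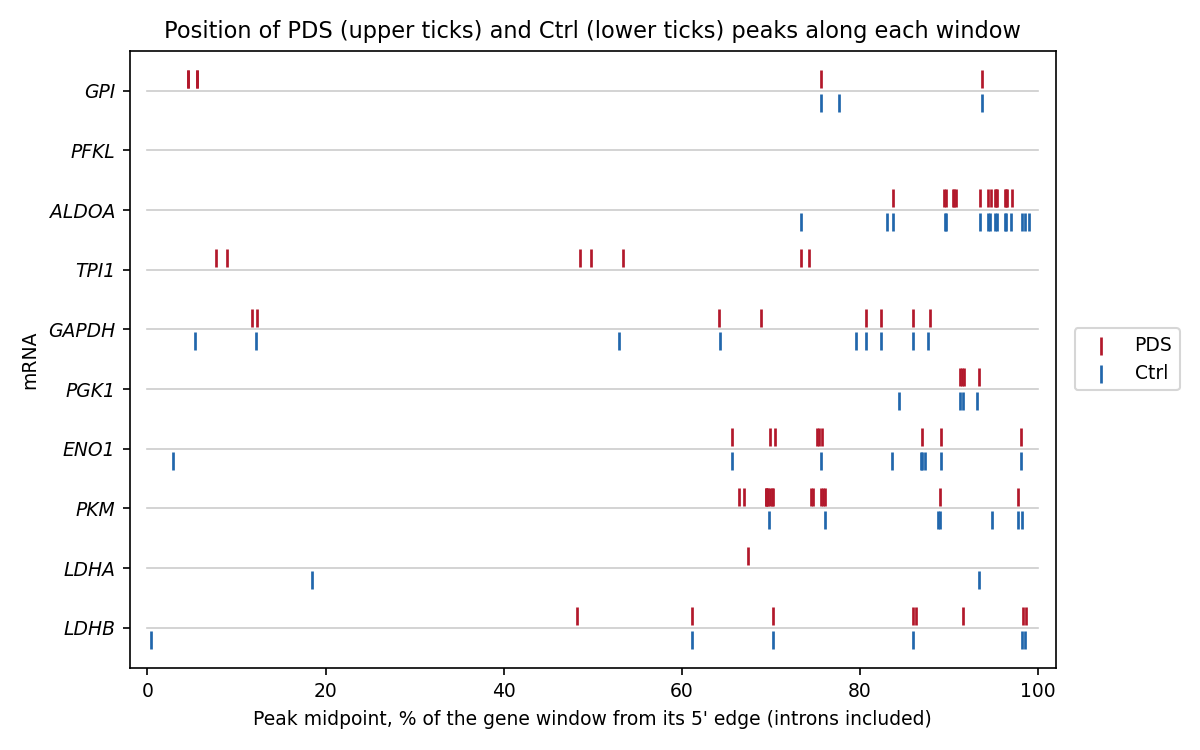
Midpoint of every peak on the 10 mRNAs as a percentage of the gene window from its 5′ edge, with PDS peaks as red ticks above and Ctrl peaks as blue ticks below each line. Ticks gather toward the right, with medians of 75.7% for PDS and 87.5% for Ctrl. The PDS ticks of TPI1, GPI and PKM, among others, include stretches with no Ctrl tick. Ctrl ticks near the 5′ edge of ENO1 and LDHB likewise have no PDS tick near them.

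The first enzyme of the set, GPI, was bound at both ends of its window (plus strand, chr19:34855600-34893400). It had 6 PDS peaks and 3 Ctrl peaks. Near the 5′ edge, 2 sites held PDS peaks alone, each made of a long and a 3-nt peak that abutted. The long ones lay at 34857294 to 34857337 (log2 fold 3.24, −log10 p 35.8) and at 34857690 to 34857741 (log2 fold 3.18, −log10 p 40.8). These 4 peaks had the highest −log10 p of this mRNA, with log2 folds of 3.18 to 3.35. Toward the 3′ edge the most enriched PDS peak, at 34890954 to 34891076, had a log2 fold of 3.80, and the most enriched Ctrl peak, at 34890946 to 34891110, which encloses it, had 4.25. A peak at 34884153 to 34884213 in the PDS list (log2 fold 3.35) matched one shifted by 1 nt in the Ctrl list (3.07), while the third Ctrl peak, at 34884926 to 34884970 (3.05), overlapped none. No peak of either list fell on PFKL (plus strand, chr21:45719900-45747300), the only member without a peak.

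ALDOA, the aldolase of most adult tissues, carried the strongest untreated binding among the enzymes (plus strand, chr16:30064400-30081800). It had 16 peaks in each list, covering 539 nt in the PDS list and 748 nt in the Ctrl list. All 16 PDS peaks and 15 of the 16 Ctrl peaks lay in the last 25% of the window. At 30080629 to 30080706 the PDS peak had a log2 fold of 3.79 and a −log10 p of 18.8, against 5.49 and 42.5 for the Ctrl peak, which ranked 13 among the 1421 Ctrl peaks by fold. That difference of -1.69, PDS minus Ctrl, was the lowest among the 26 sites of both lists.

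The other ALDOA sites of both lists differed less. The site at 30079966 to 30080022 had a highest log2 fold of 4.22 with PDS and 4.89 without. At 30080820 to 30080994 these values were 3.92 and 4.44, and at 30081151 to 30081340 they were 4.09 with PDS and 4.56 without. The site at 30078949 to 30078982 alone had the higher value with PDS, 3.48 against 3.36 in Ctrl. Thus the downstream sites that remained in the PDS list were all less enriched there than in untreated cells.

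Other ALDOA stretches were found in 1 list alone. In the PDS list, 3 abutting peaks covered 30080139 to 30080228 with log2 folds of 4.19, 4.34 and 4.11, where the Ctrl list had no peak. The middle one was the most enriched PDS peak of this mRNA (−log10 p 37.8). In the Ctrl list, the 3′-most site, at 30081464 to 30081670, comprised 3 peaks that no PDS peak met. The highest of them had a log2 fold of 4.80 and a −log10 p of 60.6, the highest −log10 p of any enzyme peak in the Ctrl list. Single Ctrl peaks at 30077137 to 30077219 (log2 fold 3.25) and 30078822 to 30078887 (3.37) also overlapped none.

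**Figure D4:**
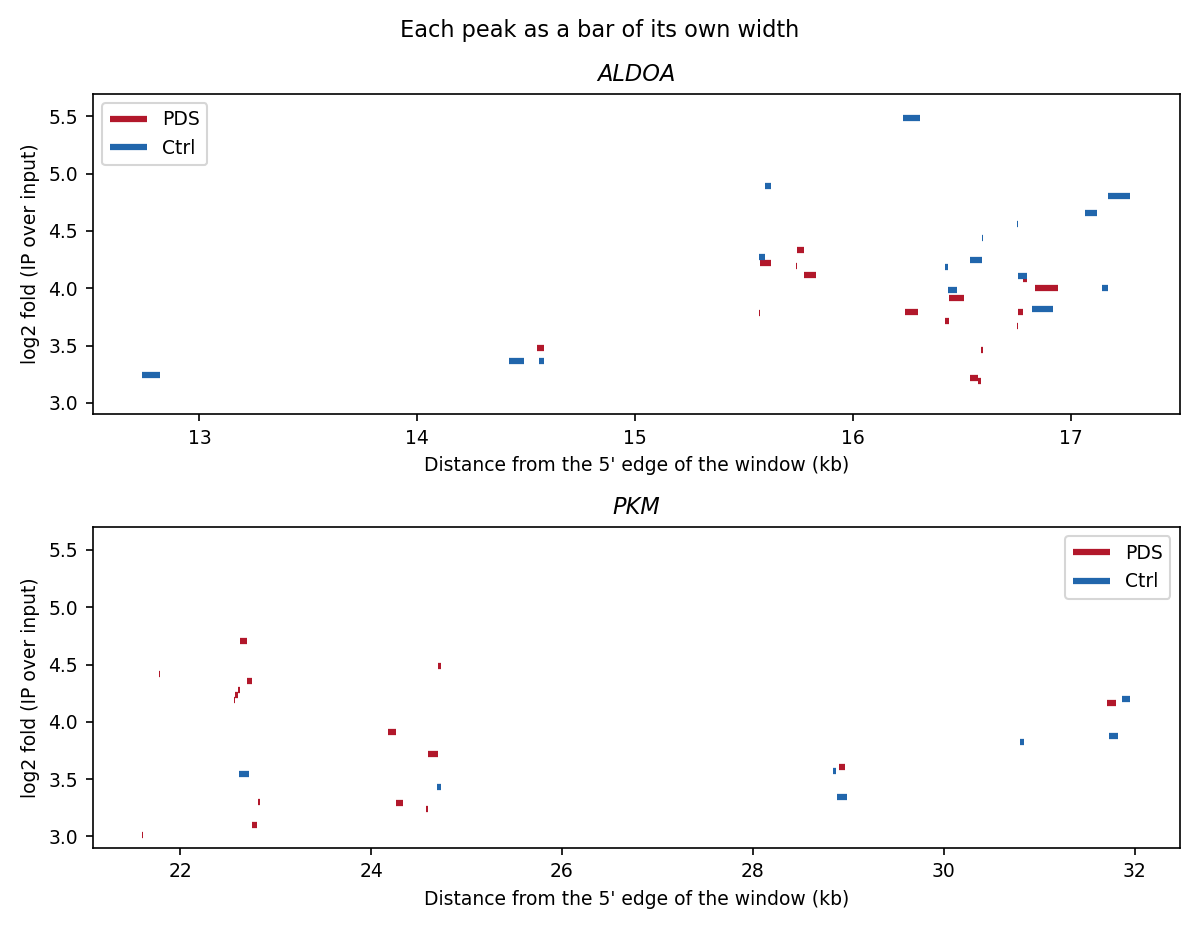
Log2 fold of IP over input for each peak on ALDOA (top) and PKM (bottom), drawn as a bar of the peak's own width against the distance from the 5′ edge of the window in kb, with PDS in red and Ctrl in blue. On ALDOA the PDS bars reach 4.34 and the Ctrl bars 5.49, and on PKM the PDS bars reach 4.71 and the Ctrl bars 4.20.

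TPI1, the triose phosphate isomerase, was the member found with PDS alone (plus strand, chr12:6976500-6980200). Its 7 PDS peaks formed 4 sites and covered 330 nt. The most enriched, at 6978263 to 6978331, had a log2 fold of 4.25 and a −log10 p of 26.5. A second, at 6978432 to 6978524, had a log2 fold of 3.89 and a −log10 p of 20.7. The remaining 5 peaks had log2 folds between 3.03 and 3.64, and included a pair that began 251 nt from the 5′ edge. Sites in the PDS list alone were the commonest kind in the series (55.4%), while among the other enzymes with peaks each had at least 1 Ctrl peak. That share counts sites, and how many mRNAs of the series had PDS peaks alone was not counted here.

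GAPDH, which oxidises the triose phosphate, lies on the same chromosome and strand (chr12:6643500-6647600) and had 8 PDS peaks and 9 Ctrl peaks. It had the densest binding per length of window in both lists, at 104.9 bound nt per kb in the PDS list and 108.0 in the Ctrl list. Its window, introns included, is the shortest after that of TPI1, at 4101 nt. By bound length (430 nt in PDS and 443 nt in Ctrl), ALDOA, ENO1, PKM and LDHB had more in both lists. Of the GAPDH peaks, 7 in each list overlapped the other list. The most enriched PDS peak, at 6646088 to 6646176, had a log2 fold of 4.19, and the Ctrl peak inside it had 3.23. Further downstream the order turned: the PDS peak at 6646844 to 6646912 had 3.98, and the Ctrl peak around it, at 6646840 to 6646917, had 4.63, the highest of this mRNA in that list. The peaks without a counterpart had log2 folds of 3.08 (the 1 PDS peak) and of 3.49 and 3.40 (the 2 Ctrl peaks), the last being the median of the 9 Ctrl peaks. RefSeq names 65 pseudogenes after GAPDH and between 0 and 6 after each other member. How the authors placed reads that match several copies is not given in the sources used here, so the peaks of GAPDH are uncertain in that respect.

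PGK1, the first ATP-forming enzyme of the pathway, had 4 peaks in each list (plus strand, chrX:77359600-77382400), all in the last 25% of the window. Its main site, at 77380371 to 77380549, began at the same base in both lists. The highest log2 fold there was 4.65 in the PDS list (peak at 77380459 to 77380547) and 4.29 in the Ctrl list (peak at 77380433 to 77380549). Downstream, a PDS peak at 77380865 to 77380925 had a log2 fold of 4.07, and a Ctrl peak at 77380822 to 77380858, 6 nt short of it, had 3.08. The upstream Ctrl peak at 77378822 to 77378872 (3.21) had no PDS counterpart.

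ENO1, the enolase of most tissues, had 9 peaks in each list (minus strand, chr1:8921000-8939200), of which 6 in each overlapped the other list. The site closest to the 5′ edge among those of both lists, at 8927192 to 8927305, was the most enriched of this mRNA with PDS, at a log2 fold of 4.18 against 3.10 in Ctrl. At the other end, the PDS peak at 8921335 to 8921379 had a log2 fold of 3.73 and a −log10 p of 9.74. The Ctrl peak around it, at 8921295 to 8921404, was the most enriched of this mRNA in that list, at 4.56 and 34.9. The site at 8923294 to 8923402 was likewise lower with PDS (3.31 against 4.14). Those at 8925361 to 8925541 (3.63 against 3.38) and 8922962 to 8923003 (3.16 against 3.05) were higher with PDS. The latter lies between the lower sites, so the order of the lists differed along this mRNA without a single switch. A PDS site at 8926338 to 8926517 (highest log2 fold 3.12) and Ctrl peaks at 8938639 to 8938713 (3.44) and 8923950 to 8924024 (3.50) were found in 1 list alone.

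PKM, the pyruvate kinase whose transcript is spliced into M1 and M2 forms, had the largest excess of PDS peaks among the enzymes: 16 against 7 in the Ctrl list (minus strand, chr15:72491300-72523800). The peaks covered 717 nt in the PDS list and 506 nt in the Ctrl list. The excess came from a stretch between 72499068 and 72502200, where 14 PDS peaks and 2 Ctrl peaks lay. Its strongest part was a run of 5 abutting PDS peaks from 72501054 to 72501232, with log2 folds of 4.19 to 4.71. The peak at 72501106 to 72501177 (log2 fold 4.71) had a −log10 p of 400, a ceiling shared by 82 PDS peaks and 8 Ctrl peaks of the series and read as a stand-in, not as a measured value. The single Ctrl peak there, at 72501077 to 72501185, had a log2 fold of 3.55 and a −log10 p of 35.1.

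The same PKM stretch held a pair of PDS peaks at 72499468 to 72499618 (log2 folds 3.30 and 3.91, the higher one with a −log10 p of 81.5) that had no Ctrl counterpart. The neighbouring site at 72499068 to 72499221 had a highest log2 fold of 4.49 with PDS and 3.43 without. Nearer the 3′ edge the lists were closer. The PDS peak at 72494832 to 72494894 had 3.60 and the Ctrl peak it overlapped 3.34, and the PDS peak at 72491993 to 72492086 had 4.16 and its Ctrl partner 3.87. Each of these sites also held a Ctrl peak that met no PDS peak, with 3.57 at the first and 4.20, the highest Ctrl value of this mRNA, at the second (72491845 to 72491929). The difference at the second was therefore -0.03 over all peaks of the site and 0.29 over overlapping peaks. Joined within 50 nt, PKM had 7 PDS regions and 5 Ctrl regions, so that most of its excess of peaks lay in pieces within 50 nt of each other.

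The lactate dehydrogenase subunits differed from each other. LDHA, the subunit favoured in glycolytic cells (plus strand, chr11:18415900-18429800), had 1 PDS peak and 2 Ctrl peaks, and none overlapped. The PDS peak, at 18425244 to 18425317, had a log2 fold of 4.42 and a −log10 p of 40.2. The Ctrl peaks, at 18418439 to 18418512 and 18428829 to 18428933, had log2 folds of 3.97 and 3.64. No LDHA site was therefore found in both lists, which among the enzymes with peaks holds also for TPI1.

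LDHB, the subunit prominent in heart (minus strand, chr12:21788200-21810800), had 8 PDS peaks and 6 Ctrl peaks, of which 5 in each list overlapped the other. Its 3 most enriched PDS peaks were also the 3 highest of all enzyme peaks in that list. They lay at 21791324 to 21791400 with a log2 fold of 4.94, at 21794886 to 21794942 with 4.92 and at 21796946 to 21797019 with 4.75. The Ctrl peaks they overlapped had 4.23, 3.50 and 3.92. The differences were 0.71, 1.42 and 0.83, so that all 3 sites were more enriched with PDS, and the second was the largest such difference among the enzymes.

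At the 3′ edge of LDHB the lists were close, with a highest log2 fold of 3.38 in the PDS list and 3.51 in the Ctrl list at 21788466 to 21788639. PDS peaks at 21799870 to 21799950 (3.75) and 21790098 to 21790128 (3.63) lay at sites with no Ctrl peak. The Ctrl peak at 21810685 to 21810743 (4.21), which began 57 nt from the 5′ edge, had no PDS counterpart. The −log10 p at the strongest LDHB site was 79.6 in the PDS list and 16.2 in the Ctrl list.

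The shape of the peaks varied with the list as well. The enzymes' peaks had a median width of 49 nt in the PDS list and 60 nt in the Ctrl list, where all peaks had 63 nt and 74 nt. Peaks that abutted another of their own list made up 52.0% of the enzymes' PDS peaks (39 of 75, beside 40.5% of all PDS peaks) and 35.7% of their Ctrl peaks (20 of 56, beside 20.3% of all Ctrl peaks). ALDOA held 13 of these 39 PDS peaks and 10 of the 20 Ctrl peaks, and PKM held 10 and 0. Joined within 50 nt, the enzymes' peaks formed 41 regions in the PDS list and 40 in the Ctrl list, a ratio of 1.02, while the whole lists gave 1.73. With regions in place of peaks, TPI1 (4 and 0), PKM (7 and 5), GPI (4 and 3) and LDHB (6 and 5) had more with PDS. ALDOA (6 and 9), GAPDH (5 and 6), PGK1 (2 and 3), ENO1 (6 and 7) and LDHA (1 and 2) had fewer.

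The windows were isolated. On the strand of each gene, ALDOA alone had a peak outside its window within 10000 nt, the nearest lying 5612 nt past the 3′ edge in the PDS list (log2 fold 3.33) and 5835 nt past it in the Ctrl list (3.33). No peak of either list lay on the opposite strand of any of the 10 windows.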

How the data were processed

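G3BP1 seCLIP was done on HEK293T cells with and without PDS, in 4 groups of 2 libraries. The submitters' processing notes name cutadapt, UMI-tools, STAR and the build hg19. For the peak caller, the cut-offs and how replicates were joined, nothing is given in the sources used here. Each deposited list has 6 columns and no header. The fourth was read as the authors' −log10 p and the fifth as the authors' log2 fold of IP over input, from their values and the usual eCLIP format. Starts were taken as counted from 0 and are printed counted from 1. Library totals were not used here, and the depth under each peak stays unknown.

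Peaks were assigned to 10 windows by strand and compared in python 3.11.15 (pandas 2.3.3, numpy 2.4.6, scipy 1.17.1). The steps that find overlaps and join peaks were checked with copied and shifted Ctrl peaks, and the other steps were not checked in this way. Intervals are exact (Clopper-Pearson). The members and lists were chosen with earlier results of these data known, and no test was run. The rule for named items was the peak of highest log2 fold per mRNA and list, and every peak of mRNAs with at most 3 peaks in a list; other peaks and all sites named were chosen after their values were seen. Gene symbols were checked against RefSeq (GRCh38.p14), where all 10 lay on the chromosome of their window. Transcript regions, sequences and other genes of the pathway were not analysed here.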

Additional observations from a re-analysis of the deposited data

How the results depend on the processing

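No paired analysis was possible because each list gives 1 value per peak for both replicates together, and no replicate could be left out for the same reason. Counts and ratios were held close when within 1.5 times, and shares, medians and positions when within the main 95% interval. The enzymes' peaks numbered 24 (PDS) and 22 (Ctrl) with the stricter threshold (log2 fold of at least 4 and −log10 p of at least 5), 41 (PDS) when joined within 50 nt and 42 (PDS) with the PDS list cut to the length of the Ctrl list. That last setting, which raises the log2 fold limit of the PDS list alone, turned the PDS to Ctrl ratio of peaks to 0.75. Leaving out each mRNA in turn (chosen after seeing the data) kept that ratio between 1.20 and 1.48. The share of the enzymes' PDS peaks that overlapped a Ctrl peak was 41.3% with a reciprocal overlap of 50% and 20.8% with the stricter threshold. The share of their Ctrl peaks was 27.3% with the stricter threshold and 42.9% with the shortened PDS list. The order of the lists turned for single mRNAs too: PDS minus Ctrl peaks were -1 for GPI and 1 for LDHA with the stricter threshold, and -2 for GPI and -1 for LDHB with the shortened PDS list. For TPI1 and PKM the PDS list held more peaks in all 5 settings of the count. Sites joined at 0 nt in place of 50 nt (chosen after seeing the data) changed none of the 5 site counts by over 1.5 times, and neither did taking only overlapping peaks (also chosen after seeing the data) for the 3 counts it bears on. Fewer peaks pass a stricter limit by construction, and the other causes were not tested.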

Other observations

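Among the 7 enzyme mRNAs with at least 2 sites of both lists, the 5′-most of these sites had a larger difference in log2 fold, PDS minus Ctrl, than the 3′-most in 6. The values at the 5′-most and the 3′-most site were 1.08 and -0.83 for ENO1, 1.16 and -0.03 for PKM, and 0.83 and -0.12 for LDHB. They were 0.27 and -0.45 for GPI, 0.11 and -0.48 for ALDOA, and 0.44 and -0.10 for GAPDH. PGK1 went the other way, with 0.36 and 0.99. With overlapping peaks only (chosen after seeing the data), 6 mRNAs had at least 2 such sites, and the 5′-most had the larger difference in all 6, with 0.29 at the 3′-most site of PKM. Over the whole series, sites were chained over gaps of up to 10000 nt on 1 strand into loci. The 5′-most site had the larger difference in 51 of 95 loci (53.7%), and in 46 of 88 (52.3%) with enzyme loci left out. The enzymes were counted by window and the series by locus, so these shares are not in like units. By locus, as the counts with and without enzyme loci give it, the enzymes' share was lower than by window. The pattern was noticed in these values, rests on 1 list per condition and was not tested.

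Some enzyme peaks ended at exactly the same base in both lists. Of the 43 overlapping PDS peaks, 9 (20.9%, exact 95% interval 10.0 to 36.0%) shared their start or end with a Ctrl peak, beside 13.5% of the 894 overlapping PDS peaks of the series. ALDOA held 5 of the 9, among them a 6-nt peak at 30081151 to 30081156 that was identical in both lists. Peaks identical at both borders numbered 6 in the whole series. The ALDOA peak had a log2 fold of 3.67 in the PDS list and 4.56 in the Ctrl list.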
